A study of Mus musculus with 2 samples.

Results

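The 5 genes of extracellular adenosine, Entpd1, Nt5e, Cd38, Adora2a and Adora2b, were followed through the cells of LLC tumours, a mouse Lewis lung carcinoma line, in a single-cell RNA library from Dusp2 knockout mice (KO) and one from wild-type mice (WT). These are 5 of the 33696 genes counted in both libraries, taken by symbol, and each symbol had 1 row. Dusp2 encodes a nuclear phosphatase of MAP kinases that activated lymphocytes induce early. The labels call the cells tumour-infiltrating lymphocytes and give neither the age, sex or number of mice, nor the sort, nor which part of Dusp2 is missing. The labels give the molecule as polyA RNA for KO and total RNA for WT.

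Extracellular ATP, released by dying or activated cells, is turned to AMP by CD39, the protein of Entpd1, and AMP is turned to adenosine by CD73, the protein of Nt5e. CD38 uses NAD and feeds the same end product by a side route. Adenosine then binds receptors such as those of Adora2a and Adora2b, which raise cAMP inside the cell, and in tumours this route is known for restraining T and NK cells.

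Each genotype was 1 library, so no difference below has a replicate check, no p-value can be given, and genotype cannot be told apart from animal, tumour or library preparation. The KO library held 12744 barcodes with a median of 4754 unique molecular identifiers (UMIs, counted molecules) and the WT library held 9890 with a median of 8496, and 31 barcodes occurred in both. Cells were put in classes by raw UMIs of marker genes, which took 8830 of 12636 kept KO cells and 7406 of 9765 kept WT cells. For a level, a gene's UMIs were summed over the cells of a class and divided by all UMIs of those cells, per 1000000 (CPM), and ratios are log2 of KO over WT. Intervals are 95% and cover counting error only. Dusp2 itself stood at 10.5 CPM in KO and 569 CPM in WT CD8 T cells, and at 76.2 CPM in KO and 76.5 CPM in WT tumour cells. The B gate took 3751 KO and 19 WT cells and the plasma gate 274 KO and 0 WT cells. The 19 WT cells of the B gate carried 799 CPM of Rhox5, a gene that marked the tumour cells at 892 CPM in KO and 934 CPM in WT, and are not used. The endothelial gate caught 19 KO and 38 WT cells with 1070 and 1139 CPM of Rhox5 and only 6.80 and 3.16 CPM of Pecam1, which goes against its name, and it is not described.

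Promoters are shown for 3 of the genes, whose ratios differed by class. Entpd1 was lower in KO cells of several classes. Adora2b was lower in KO macrophages and conventional dendritic cells and higher in KO tumour cells. Nt5e was close in KO and WT CD8 T cells, lower in KO conventional CD4 T cells and higher in KO tumour cells. Each run is 300 bases from RefSeq on GRCm38.p6, from 250 bases before to 50 after a transcript start, on the plus strand. Capitals mark the core GGAAA bound by NFAT factors, or its reverse complement TTTCC. The Entpd1 starts lie in chr19:40612116-40612415 and chr19:40659520-40659819, the Nt5e start in chr9:88327359-88327658 and the Adora2b start in chr11:62248734-62249033.
Entpd1 upstream start: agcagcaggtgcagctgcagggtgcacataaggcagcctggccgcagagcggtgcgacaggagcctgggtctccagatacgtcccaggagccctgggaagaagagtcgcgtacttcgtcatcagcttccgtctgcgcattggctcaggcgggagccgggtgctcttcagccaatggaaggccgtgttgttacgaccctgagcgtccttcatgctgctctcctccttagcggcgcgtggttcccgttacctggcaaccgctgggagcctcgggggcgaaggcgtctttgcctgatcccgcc
Entpd1 downstream start: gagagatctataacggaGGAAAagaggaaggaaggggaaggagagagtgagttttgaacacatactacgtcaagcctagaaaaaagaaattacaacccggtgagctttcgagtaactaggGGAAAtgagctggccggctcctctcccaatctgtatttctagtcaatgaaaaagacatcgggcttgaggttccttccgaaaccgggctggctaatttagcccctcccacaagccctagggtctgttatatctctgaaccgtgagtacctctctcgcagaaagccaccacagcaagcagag
Nt5e start: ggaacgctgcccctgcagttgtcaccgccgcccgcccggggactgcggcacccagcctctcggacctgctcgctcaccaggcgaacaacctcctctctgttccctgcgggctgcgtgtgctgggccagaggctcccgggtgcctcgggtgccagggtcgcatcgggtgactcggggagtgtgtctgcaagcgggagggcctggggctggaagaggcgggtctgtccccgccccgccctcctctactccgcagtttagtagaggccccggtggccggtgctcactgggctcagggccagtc
Adora2b start: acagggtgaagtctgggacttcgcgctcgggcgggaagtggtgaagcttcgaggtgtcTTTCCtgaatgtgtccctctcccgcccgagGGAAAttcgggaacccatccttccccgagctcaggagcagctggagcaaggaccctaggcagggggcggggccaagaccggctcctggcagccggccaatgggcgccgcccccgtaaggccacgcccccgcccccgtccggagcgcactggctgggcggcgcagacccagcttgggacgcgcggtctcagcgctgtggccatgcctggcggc

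The NFAT core occurred 2 times at the downstream Entpd1 start, 2 times at Adora2b, 1 time at Cd38 and 0 times at the upstream Entpd1 start and at Nt5e. It is a common word, present in 61.3% of 32851 mouse promoters of this length. The cAMP response half-site TGACG, on either strand, was found 1 time at each Entpd1 start and at no other promoter searched, against 20.8% of all promoters. The hypoxia core, ACGTG or GCGTG on either strand, was found 1 time at the upstream Entpd1 start, at Nt5e and at Adora2b, against 43.8% of all. Adora2a was not searched. These are matches of letters and not measured binding, and their relation to the KO to WT ratios was not tested.

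Entpd1 was lower in KO than in WT in CD8 T cells, conventional CD4 T cells and T cells of no finer class, with smaller ratios in regulatory T cells and macrophages. Differences between classes were not tested here or below. The gene spans 40612366 to 40741602 of chromosome 19 in GENCODE M21. In CD8 T cells it stood at 18.9 CPM (15.0 to 23.5) in KO from 81 UMIs in 788 cells, against 66.5 CPM (57.6 to 76.4) in WT from 200 UMIs in 463 cells. The ratio was -1.81 (-2.20 to -1.43), and it was the only one of the 5 genes past 2-fold in this class. All 5 had the required 20 UMIs over both libraries, and 8.96% of the 10894 genes that met this minimum were past 2-fold in either direction. At 1.5-fold 3 of the 5 genes passed, and 22.9% of all genes.

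The share of CD8 T cells with an Entpd1 UMI was 7.49% in KO and 27.2% in WT, at median depths of 4623 and 5506 UMIs. Thinned to 2000 UMIs per cell, which leaves out 120 KO and 11 WT cells, the shares were 3.59% and 9.07%. Among fibroblasts, used as a class outside the lymphoid and myeloid lines, 8.89% of 90 KO and 17.6% of 91 WT cells carried an Entpd1 UMI. Their depths were 3566 and 6949, unlike those of CD8 T cells. Taken unthinned, the KO CD8 share was no higher than the fibroblast share of its library and the WT share was above it. The other KO T classes ran from 2.96% in T cells without a finer class to 33.6% in regulatory T cells. KO NK cells stood at 7.61%, and KO B cells stood below KO CD8 T cells at 4.99% (4.31 to 5.73). Thinned, 4 of 69 KO fibroblasts had Entpd1 without Nt5e and 1 had both. In WT these were 3 of 76 and 0, so the order of KO and WT fibroblasts was turned round. Tumour cells held 0.659 CPM in KO and 1.74 CPM in WT, with a UMI in 1.12% and 5.31% of cells at depths of 26730 and 30992. Free macrophage RNA was gauged by Lyz2, a macrophage transcript. Macrophages held 25.2 Entpd1 UMIs per 1000 Lyz2 UMIs in KO and 28.5 in WT. In CD8 T cells this was 105 in KO and 237 in WT, while KO and WT NK cells held 114 and 114 and fibroblasts 102 and 130. The KO CD8 value was thus near those of NK cells and fibroblasts of its library and the WT value was above them. These KO NK and fibroblast values rest on 16 and 10 Entpd1 UMIs. Gamma-delta T cells held 93.0 in KO and 41.9 in WT per 1000 Lyz2 UMIs, from only 4 and 7 Entpd1 UMIs. KO B cells held 90.5 and KO tumour cells 16.4, both lower than KO CD8 T cells. Conventional CD4 T cells held 181 in KO and 279 in WT, and regulatory T cells 417 and 792, both above CD8 T cells of the same library. In CPM, KO CD8 T cells (15.0 to 23.5) stood above KO B cells at 12.2 CPM (10.7 to 13.9).

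Markers of other cells differed between the CD8 T cells of the libraries in both directions. The macrophage markers Csf1r, Adgre1 and Fcgr1 summed to 11.7 CPM in KO and 15.3 CPM in WT CD8 T cells, all 3 detected in both, and the C1q genes to 92.5 and 131 CPM. The B markers Ms4a1, Cd79a and Cd79b summed to 36.5 CPM in KO with all 3 detected, and to 4.32 CPM in WT with Ms4a1 at 0. Rhox5 stood at 76.9 CPM in KO and 34.3 CPM in WT. Leaving out cells with 5 or more Rhox5 UMIs gave a ratio of -1.78. Leaving out lymphoid cells with a C1q UMI or 2 Lyz2 UMIs gave a ratio of -2.11.

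The CD8 T classes were not the same mix of cells. Naive-like cells, with 2 or more UMIs over a naive marker list that includes Ccr7 and Lef1, made up 53.9% of KO and 32.0% of WT CD8 T cells, and cells with a Pdcd1 UMI 20.4% and 68.0%. Entpd1 was lower in KO within each split. With Pdcd1 it stood at 23.5 CPM in KO and 77.1 CPM in WT (ratio -1.71, -2.37 to -1.11), and without Pdcd1 at 17.3 and 40.4 CPM (-1.22, -1.86 to -0.57). Naive-like cells held 13.7 CPM in KO and 46.3 CPM in WT (-1.75, -2.41 to -1.11), and the others 27.2 and 78.3 CPM (-1.52, -2.04 to -1.03). Within WT, cells with Pdcd1 held more Entpd1 than cells without (log2 0.93, 0.40 to 1.5). Within KO the same log2 was 0.44 (-0.29 to 1.14). The difference between these was not tested.

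Regulatory T cells, which use CD39 as part of their suppressive kit, had the highest Entpd1 among T classes in each library. The level was 111 CPM (88.4 to 137) in KO from 131 cells and 167 CPM (141 to 196) in WT from 121 cells, a ratio of -0.60 (-1.0 to -0.20). No gene of the 3 with 20 UMIs was past 2-fold in this class, where 8.64% of all genes were, and 1 was past 1.5-fold, where 24.8% of all genes were. Over conventional CD4 T cells, regulatory T cells held more by 2.58 (2.04 to 3.14) on the log2 scale in KO and 1.71 (1.18 to 2.26) in WT. Split by naive-like markers, the KO to WT ratio was -0.40 (-0.91 to 0.10) in naive-like and -0.82 (-1.57 to -0.12) in other regulatory T cells.

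Conventional CD4 T cells held 18.4 CPM of Entpd1 in KO (44 UMIs) and 51.2 CPM in WT (38 UMIs), a ratio of -1.47 (-2.13 to -0.81). It was -2.46 without cells holding a C1q UMI or 2 Lyz2 UMIs, an alternative chosen after seeing the data. Entpd1 and Nt5e were the genes past 2-fold there, 2 of 3, and 12.4% of all genes were. T cells without a finer class held 9.69 CPM in KO and 45.7 CPM in WT, -2.24 (-2.86 to -1.65). Of the 91 WT UMIs, 19 lay in 1 cell. Under 13 other ways of computing it the ratio lay between -2.62 and -1.86. This class is what the finer gates leave. Its median depths were 3495 UMIs in KO and 5251 in WT, and Ccr7 and Lef1 summed to 885 and 412 CPM. The part of depth and cell mix in the ratio was not tested. With Adora2a and Adora2b, Entpd1 made 3 of 5 genes past 2-fold there, all lower in KO. Of all genes, 11.4% were past it in either direction and 5.40% were lower in KO. The Adora2b value rests on 9 KO and 13 WT UMIs, its interval includes 0 (-1.31, -2.71 to 0.03), and other settings took it as far as -0.09. In gamma-delta T cells only 4 KO and 7 WT UMIs were counted. NK cells held 14.2 CPM in KO and 20.3 CPM in WT (-0.52, -1.42 to 0.31), and 0 of 4 genes were past 2-fold there, with 7.44% of all genes past it.

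**Figure D1:**
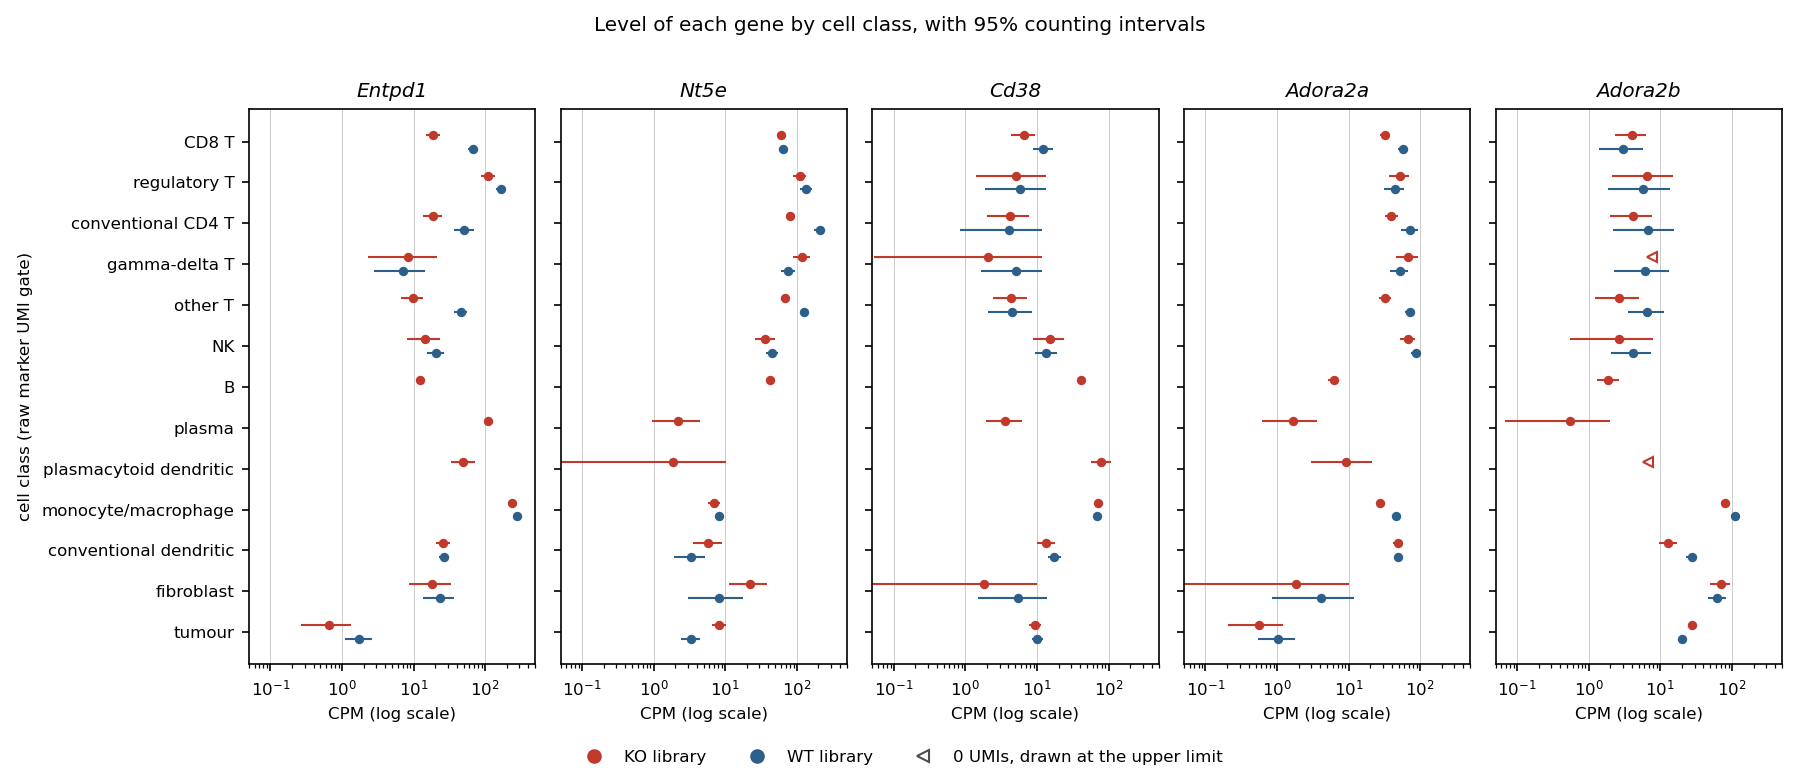
Level in CPM (log axis) of the 5 genes in each cell class of the KO library (red, upper) and the WT library (blue, lower). Points are pooled UMIs of 1 library, bars are 95% counting intervals, and classes with fewer than 50 cells in a library are left out. Entpd1 is lower in KO CD8 T cells (18.9 CPM) than in WT ones (66.5 CPM), and Nt5e lies close in both (60.5 and 64.5 CPM).

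Monocytes and macrophages carried most Entpd1 UMIs of each library, 61.1% of them in KO and 85.4% in WT. Their level was 240 CPM (232 to 248) in KO and 281 CPM (277 to 286) in WT, with a ratio of -0.23 (-0.28 to -0.17). By thinned cells, 35.6% of KO and 39.5% of WT macrophages had an Entpd1 UMI. None of the 5 genes was past 2-fold in this class, and 6.34% of all genes were, while 1 was past 1.5-fold, with 15.6% of all genes. Macrophages with fewer than 10 UMIs of the C1q genes, which encode a complement factor made by mature macrophages, held 234 CPM in KO and 271 CPM in WT, and those with 10 or more held 243 and 287 CPM. The log2 of C1q-low over C1q-high was -0.05 (-0.16 to 0.05) in KO and -0.08 (-0.14 to -0.03) in WT. Among C1q-low cells with 5 or more Arg1 UMIs the order was turned round, at 269 CPM (226 to 317) in 57 KO cells and 199 CPM (182 to 216) in 304 WT cells. The few neutrophils, 10 KO and 22 WT cells, held 666 and 1954 CPM. Conventional dendritic cells held 25.9 CPM in KO and 26.6 CPM in WT, -0.04 (-0.44 to 0.36). Among classes of 50 or more cells macrophages came first in each library and tumour cells last. Regulatory T and plasma cells came next in KO with overlapping intervals, and in WT regulatory T cells came next and stood clear of CD8 T cells, which overlapped conventional CD4 T cells.

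Plasma cells, seen only in KO, held 110 CPM of Entpd1 (99.6 to 122), against 12.7 CPM in Ighd-positive B cells of the same library, 8.65-fold more. The log2 was 3.11 (2.81 to 3.43). Immunoglobulin, mitochondrial and ribosomal protein genes take 62.6% of plasma UMIs, and without them the plasma level was 295 CPM and the Ighd-positive level 18.0 CPM. Plasma cells held 2322 Entpd1 UMIs per 1000 Lyz2 UMIs, far above the 25.2 of KO macrophages. Germinal-centre-like B cells, with 2 or more UMIs over a marker list that includes Mef2b, S1pr2 and Rgs13, were lower than Ighd-positive ones at 5.69 CPM (log2 -1.16, -1.79 to -0.58).

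Nt5e, the gene of the enzyme that makes adenosine itself, stood higher in T, NK and germinal-centre-like B cells than in myeloid or tumour cells, and in CD8 T cells its level was close in KO and WT. There it stood at 60.5 CPM (53.4 to 68.4) in KO and 64.5 CPM (55.8 to 74.3) in WT, a ratio of -0.09 (-0.37 to 0.18) whose sign turned when mitochondrial, ribosomal protein and immunoglobulin genes were left out of the total (0.03). The interval leaves room for a level up to 0.37 lower or 0.18 higher on the log2 scale. Within both libraries it was higher in naive-like than in other CD8 T cells, at 68.6 and 47.8 CPM in KO (log2 0.52, 0.13 to 0.92) and at 88.9 and 50.4 CPM in WT (0.82, 0.40 to 1.24). It was lower in cells with Pdcd1 than in cells without, at 39.8 and 67.7 CPM in KO (-0.76, -1.27 to -0.29) and at 50.02 and 100 CPM in WT (-1.0, -1.43 to -0.58). Entpd1 had the other order in both libraries for the naive-like split (-0.99, -1.66 to -0.32 in KO, and -0.76, -1.25 to -0.29 in WT).

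The largest Nt5e gap among T cells was in conventional CD4 T cells, with 81.3 CPM (70.3 to 93.6) in KO and 207 CPM (176 to 243) in WT, -1.35 (-1.66 to -1.04). Thinned to 2000 UMIs, 13.2% of KO and 24.3% of WT cells had a UMI. Naive-like cells made up 65.0% of KO and 38.7% of WT cells of this class. Some markers of other cells were lower in KO here too. The fibroblast markers summed to 46.1 CPM in KO and 238 CPM in WT, with Lum at 0 in KO, the C1q genes to 49.9 and 125 CPM and the macrophage markers to 7.55 and 24.2 CPM, all detected in both. Of the fibroblast marker UMIs, 67 of 110 in KO and 88 of 177 in WT lay in 1 cell each. The B markers went the other way, at 26.0 CPM in KO and 2.69 CPM in WT, where Ms4a1 was at 0. The Nt5e ratio was -1.45 without cells holding 2 or more fibroblast marker UMIs and -1.18 without cells holding a C1q UMI or 2 Lyz2 UMIs. Within naive-like cells the levels were 72.9 CPM in KO and 213 CPM in WT (-1.55, -1.99 to -1.10), and in the others 103 and 203 CPM (-0.98, -1.46 to -0.51). T cells without a finer class held 69.0 CPM in KO and 128 CPM in WT, -0.89 (-1.15 to -0.63). Regulatory T cells held 109 CPM in KO and 135 CPM in WT, -0.30 (-0.72 to 0.11). NK cells held 36.4 and 44.8 CPM, -0.30 (-0.85 to 0.22). In WT conventional CD4 T cells came first and stood clear of regulatory T cells and T cells without a finer class, which overlapped each other.

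Gamma-delta T cells went the other way. They held 117 CPM (88.4 to 152) in KO from 92 cells and 75.5 CPM (59.4 to 94.7) in WT from 186 cells, 0.63 (0.10 to 1.15). In KO they came first, with an interval that overlapped those of regulatory and conventional CD4 T cells. Neither of the 2 genes with enough UMIs was past 2-fold there, with 14.1% of all genes past it. Without the naive-like cells the ratio was 1.18. Some markers of other cells were also higher in KO. The 5 fibroblast markers summed to 781 CPM in KO with all 5 detected, and to 19.1 CPM in WT with Pdgfra and Pdgfrb at 0. Of these UMIs in KO, 205 of 374 lay in 1 cell, and without the 3 KO and 2 WT cells that held 2 or more of them the Nt5e ratio was 0.71. The B markers summed to 33.4 CPM in KO and 7.05 CPM in WT, where Ms4a1 and Cd79a were at 0, and the NK markers Ncr1, Klrb1c and Klre1 to 282 and 140 CPM, all 3 detected in both. The part of the B and NK markers in the Nt5e value was not tested. Leaving mitochondrial, ribosomal protein and immunoglobulin genes out of the totals moved all ratios up by 0.14 (log2) in gamma-delta, 0.13 in conventional CD4 and 0.12 in CD8 T cells, and by less than 0.1, up or down, in the other 7 classes.

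In B cells of KO the 3 ectoenzymes split the lineage by stage. Germinal-centre-like cells (663 cells) held 101 CPM of Nt5e (92.8 to 110), against 7.66 CPM (5.95 to 9.72) in 1972 Ighd-positive cells, 13.2-fold more, and plasma cells held 2.22 CPM. Cd38 ran the other way, at 13.8 CPM in germinal-centre-like, 3.61 CPM in plasma and 58.3 CPM in Ighd-positive cells. Immunoglobulin, mitochondrial and ribosomal protein genes, 62.6% of plasma UMIs, lower the plasma levels. Without them Nt5e stood at 140 CPM in germinal-centre-like, 10.8 CPM in Ighd-positive and 5.94 CPM in plasma cells. Cd38 then stood at 19.0, 82.4 and 9.65 CPM in the same classes, and both orders stayed. In the mouse, loss of CD38 and gain of CD73 are known features of germinal-centre B cells. B cells gave 30.8% of all Nt5e UMIs of the KO library.

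**Figure D2:**
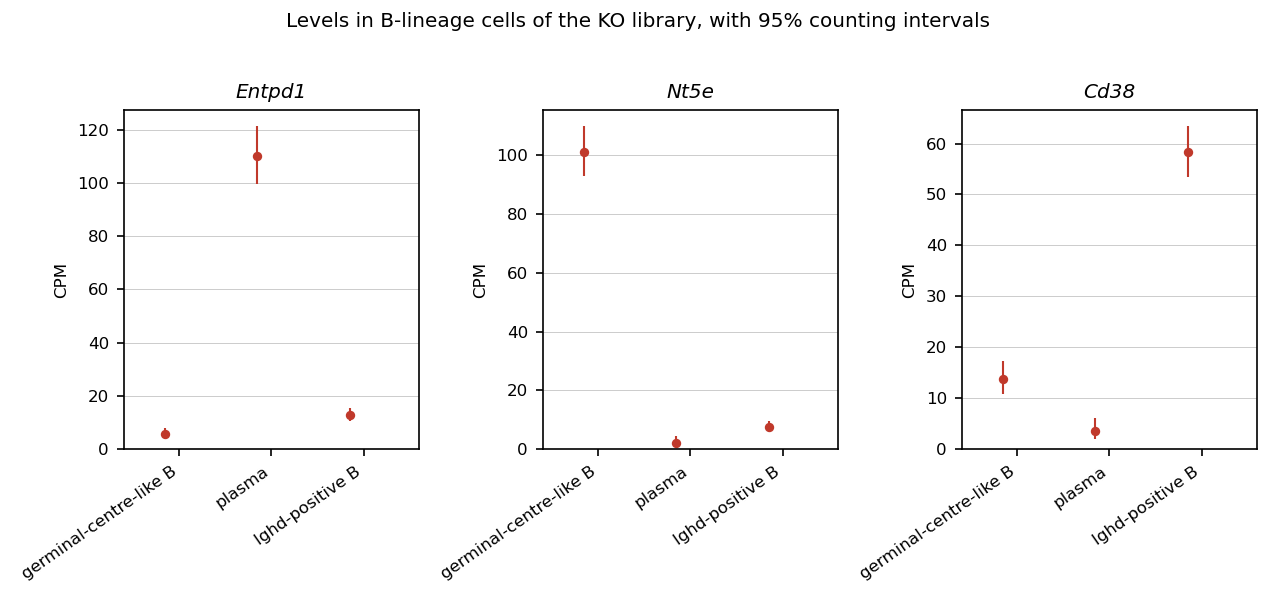
Level in CPM of Entpd1, Nt5e and Cd38 in germinal-centre-like B cells, plasma cells and Ighd-positive B cells of the KO library, with 95% counting intervals. Nt5e is highest in germinal-centre-like cells (101 CPM), Entpd1 in plasma cells (110 CPM) and Cd38 in Ighd-positive cells (58.3 CPM).

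Tumour cells held little Nt5e, but more in the KO library. For tumour cells KO names the library, and their Dusp2 level was close in both libraries. The Nt5e level was 8.19 CPM (6.56 to 10.1) in KO from 87 UMIs in 356 cells and 3.31 CPM (2.39 to 4.48) in WT from 42 UMIs in 414 cells, 1.30 (0.76 to 1.87). Some 15.7% of KO and 8.70% of WT tumour cells had a UMI, at depths of 26730 and 30992. The tumour gate rests on Y-linked transcripts, and a gate on 5 or more Rhox5 UMIs took 1225 KO and 1347 WT cells and gave 1.04 (0.70 to 1.37). Nt5e was higher and Entpd1 lower past 2-fold, 2 of 4 genes, and 5.50% of all genes were past it in either direction. The Entpd1 call rests on 7 KO and 22 WT UMIs (-1.40, -2.87 to -0.12), and with the Rhox5 gate it was -0.58 (-1.21 to 0.03). Macrophage markers were lower in KO tumour cells too, at 2.35 CPM in KO and 7.50 CPM in WT, as were the C1q genes at 20.2 and 44.8 CPM and the fibroblast markers at 554 and 1063 CPM, all detected in both. Of the tumour cells, 92.4% in KO and 96.4% in WT held 2 or more fibroblast marker UMIs, so here these markers do not set other cells apart. The part of these marker lists in the Entpd1 value was not tested. Fibroblasts held 12 KO and 6 WT Nt5e UMIs. Macrophages held 6.97 CPM in KO and 8.16 CPM in WT, and C1q-low ones more than C1q-high ones in both libraries, by 1.28 (0.68 to 1.89) in KO and 1.07 (0.77 to 1.37) in WT.

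Few T cells carried both steps of the route in 1 cell at this depth. Entpd1 and Nt5e UMIs were found together in 10 of 131 regulatory T cells in KO (7.63%, 3.72 to 13.6) and in 23 of 121 in WT (19.0%, 12.4 to 27.1), with Clopper-Pearson intervals. In CD8 T cells this was 9 of 788 in KO (1.14%) and 25 of 463 in WT (5.40%). Had the genes been found independently, the products of their shares would give 11.5% in KO and 18.9% in WT regulatory T cells, and 1.43% and 5.94% in CD8 T cells. Thinned to 2000 UMIs, both were found in 2 of 119 KO and 5 of 117 WT regulatory T cells, and in 0 of 668 KO and 5 of 452 WT CD8 T cells. Taken as 3 counts of the total, the KO count of 0 allows a share of up to 0.449% for cells with both UMIs, which is no limit on cells that express both genes.

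**Figure D3:**
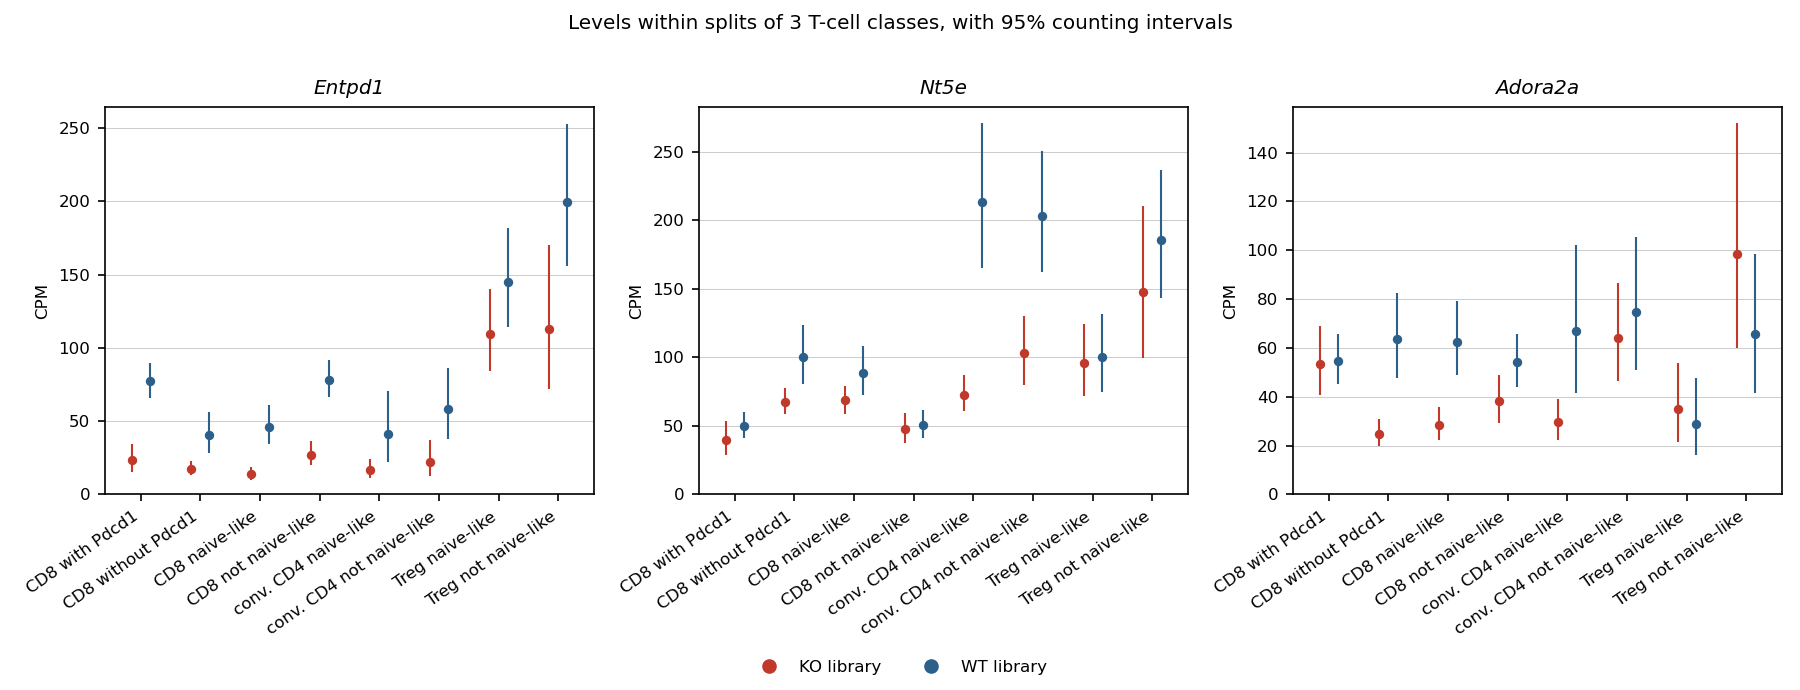
Level in CPM of Entpd1, Nt5e and Adora2a in 8 splits of CD8, conventional CD4 (conv. CD4) and regulatory T cells (Treg) of the KO library (red, left) and the WT library (blue, right), with 95% counting intervals. Entpd1 is lower in KO in all CD8 and conventional CD4 splits, and Adora2a of CD8 cells with Pdcd1 lies at 53.4 CPM in KO and 54.7 CPM in WT.

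Cd38 was mainly a gene of macrophages, B cells and plasmacytoid dendritic cells. It spans 43868553 to 43912375 of chromosome 5 and has 1 antisense and 1 intronic neighbour in GENCODE M21, and no source used here gives the strand setting of the counting, so their reads cannot be told apart. Macrophages held 71.2 CPM (66.9 to 75.8) in KO and 68.3 CPM (65.9 to 70.7) in WT, a ratio of 0.06 (-0.04 to 0.16). Plasmacytoid dendritic cells held 79.2 CPM in 82 KO cells and 85.9 CPM in 19 WT cells. In CD8 T cells 28 KO and 37 WT UMIs gave 6.54 and 12.3 CPM, -0.91 (-1.67 to -0.16). Without naive-like cells that ratio was -0.25 (-1.18 to 0.66). The other T classes held 1 to 15 UMIs in KO and 3 to 9 in WT. NK cells held 15.1 CPM in KO and 13.6 CPM in WT, and tumour cells 9.50 and 10.1 CPM. In KO the intervals of plasmacytoid dendritic cells and macrophages overlapped, and both stood above B cells at 41.2 CPM (38.4 to 44.2).

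Within macrophages the Cd38 ratio varied by subset, which was not tested. C1q-high cells held 87.3 CPM in KO and 91.0 CPM in WT (-0.06, -0.18 to 0.05). C1q-low cells held 38.1 CPM in KO and 26.7 CPM in WT (0.52, 0.25 to 0.77), those with 3 or more Ly6c2 UMIs 29.3 and 17.9 CPM (0.72, 0.10 to 1.31), and those with 5 or more Arg1 UMIs 104 and 38.9 CPM (1.42, 0.93 to 1.90). The subsets had similar weight, C1q-high cells being 58.9% of KO and 57.8% of WT macrophages, while Arg1 cells were 3.58% and 6.44%. The Arg1 value rests on 55 UMIs in 57 KO cells.

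**Figure D4:**
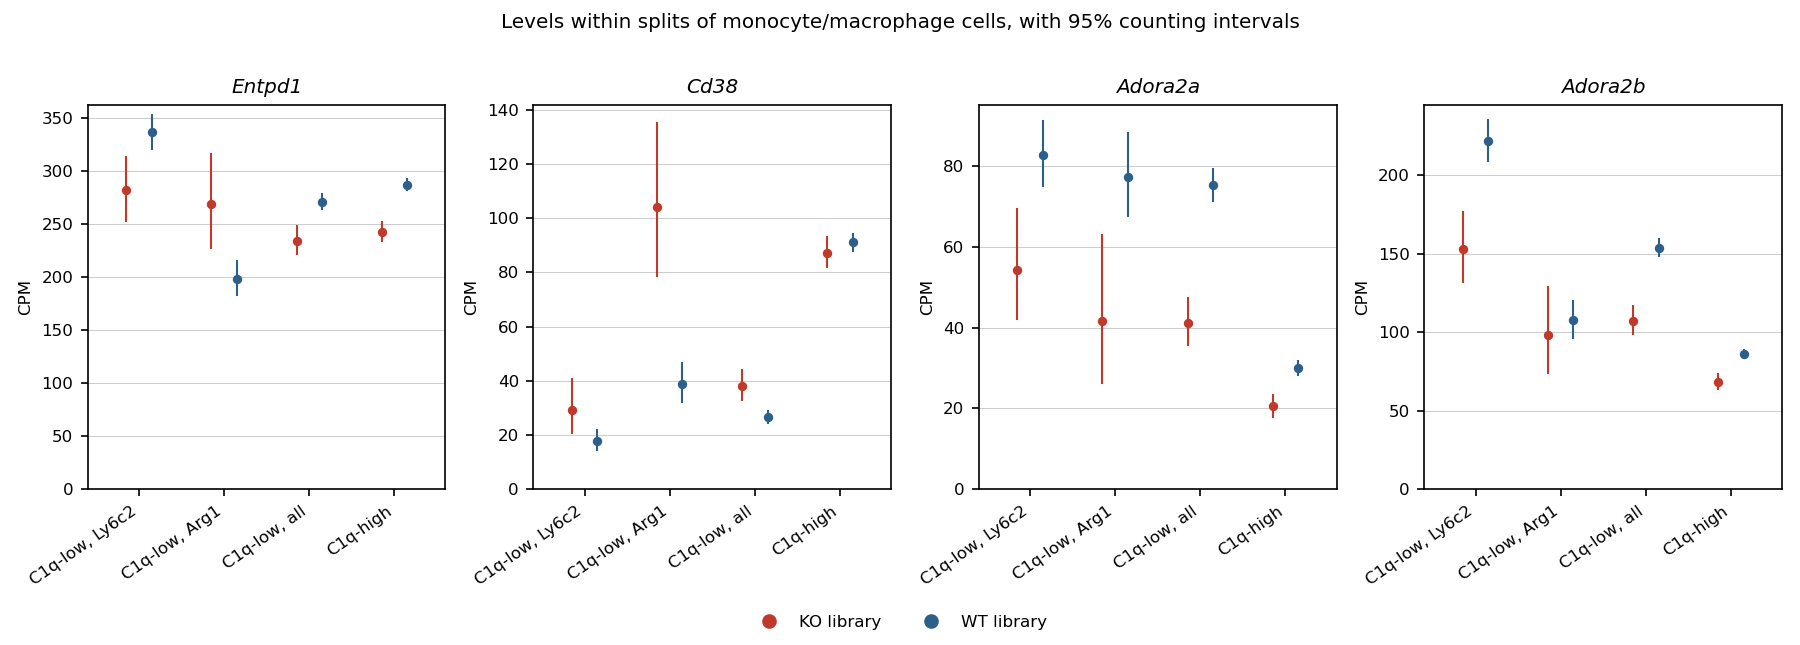
Level in CPM of Entpd1, Cd38, Adora2a and Adora2b in splits of monocyte/macrophage cells of the KO library (red, left) and the WT library (blue, right), with 95% counting intervals. Both receptors are higher in C1q-low cells with Ly6c2 than in C1q-high cells, and Cd38 of C1q-low cells with Arg1 stands at 104 CPM in KO and 38.9 CPM in WT.

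Adora2a, the receptor gene best known for restraining activated T cells, was counted in all T classes, NK cells, dendritic cells and macrophages. It spans 75316877 to 75334784 of chromosome 10. CD8 T cells held 32.2 CPM (27.1 to 38.1) in KO and 57.2 CPM (49.0 to 66.4) in WT, -0.83 (-1.16 to -0.50). Thinned shares were 5.54% in KO and 11.7% in WT, and among fibroblasts 0 of 69 and 1 of 76 cells. Without Pdcd1 the levels were 24.9 CPM in KO and 63.5 CPM in WT (-1.35, -1.87 to -0.83). In cells with Pdcd1 the levels were 53.4 and 54.7 CPM (-0.03, -0.51 to 0.43), and the interval allows a difference of up to 0.51. Within KO, cells with Pdcd1 held more than cells without (1.10, 0.59 to 1.61), and within WT the same log2 was -0.21 (-0.69 to 0.28). The difference between these was not tested.

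Conventional CD4 T cells held 39.4 CPM of Adora2a in KO and 71.4 CPM in WT, -0.86 (-1.36 to -0.34). In their naive-like cells the ratio was -1.17 (-1.93 to -0.36), and in the others -0.22 (-0.91 to 0.49), with 43 KO and 32 WT UMIs. T cells without a finer class held 32.0 CPM in KO and 72.9 CPM in WT, -1.19 (-1.56 to -0.82). Regulatory T cells held 51.4 and 43.8 CPM, 0.23 (-0.44 to 0.91), and gamma-delta T cells 66.8 and 51.4 CPM, 0.38 (-0.31 to 1.05). NK cells held 66.6 CPM (52.4 to 83.5) in KO and 85.9 CPM (75.1 to 97.8) in WT, -0.37 (-0.76 to 0.02). Gamma-delta T and NK cells came first in KO, and NK cells, T cells without a finer class and conventional CD4 T cells in WT, with overlapping intervals in each library.

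Macrophages held 27.2 CPM of Adora2a (24.6 to 30.1) in KO and 46.0 CPM (44.0 to 48.0) in WT, -0.75 (-0.92 to -0.60), and the ratio stayed between -0.79 and -0.65 under 11 other ways of computing it. It was lower in KO in C1q-high cells (-0.55, -0.78 to -0.32) and in C1q-low cells (-0.87, -1.10 to -0.65). Conventional dendritic cells held 48.9 CPM in KO and 48.7 CPM in WT, 0.01 (-0.28 to 0.29). Tumour cells held 6 UMIs in KO and 13 in WT.

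Adora2b encodes a receptor of lower affinity for adenosine that is known in myeloid and stromal cells. Among classes of 50 or more cells its level was highest in macrophages and fibroblasts. Tumour and conventional dendritic cells held less. Dendritic cells stood below tumour cells in KO (12.9 and 27.8 CPM) and above them in WT (27.3 and 19.9 CPM). The gene spans 62248984 to 62266453 of chromosome 11. Macrophages held 81.0 CPM (76.4 to 85.9) in KO and 110 CPM (107 to 113) in WT, -0.44 (-0.53 to -0.35). Thinned shares were 15.7% in KO and 19.3% in WT. C1q-low cells held more than C1q-high cells in both libraries, by 0.65 (0.48 to 0.82) in KO and 0.84 (0.76 to 0.92) in WT, and the levels of C1q-low cells with Ly6c2 were the highest, at 153 CPM in KO and 222 CPM in WT. Adora2a had the same order, by 1.01 (0.71 to 1.30) in KO and 1.33 (1.20 to 1.45) in WT, and Cd38 the opposite one, by -1.19 (-1.44 to -0.96) and -1.77 (-1.92 to -1.62).

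Conventional dendritic cells held 12.9 CPM of Adora2b in KO and 27.3 CPM in WT, -1.08 (-1.60 to -0.59). It was the 1 of 5 genes past 2-fold in this class, and 7.78% of all genes were. The dendritic gate also held tumour RNA, with Rhox5 at 346 CPM in KO and 452 CPM in WT, and without the 9.44% of KO and 16.8% of WT cells that had 5 or more Rhox5 UMIs the ratio was -1.27. The fibroblast markers summed to 113 CPM in KO and 370 CPM in WT, all 5 detected in both, and the C1q genes to 42.8 and 76.8 CPM. Without the 10.1% of KO and 18.9% of WT cells that held 2 or more fibroblast marker UMIs the ratio was -1.30, and the part of the C1q genes was not tested. Tumour cells held 27.8 CPM in KO and 19.9 CPM in WT, 0.48 (0.23 to 0.73), 0.28 (0.13 to 0.43) with the Rhox5 gate and 1.40 with cells thinned to 2000 UMIs. Fibroblasts held 69.3 CPM in KO and 62.3 CPM in WT from 38 and 46 UMIs, 0.15 (-0.51 to 0.80). They overlapped macrophages in KO and stood below them in WT. Neither of the 2 genes with enough UMIs was past 2-fold in fibroblasts, with 10.1% of all genes past it. The 5 T classes held 0 to 17 UMIs in KO and 5 to 13 in WT, too few to set apart.

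**Figure D5:**
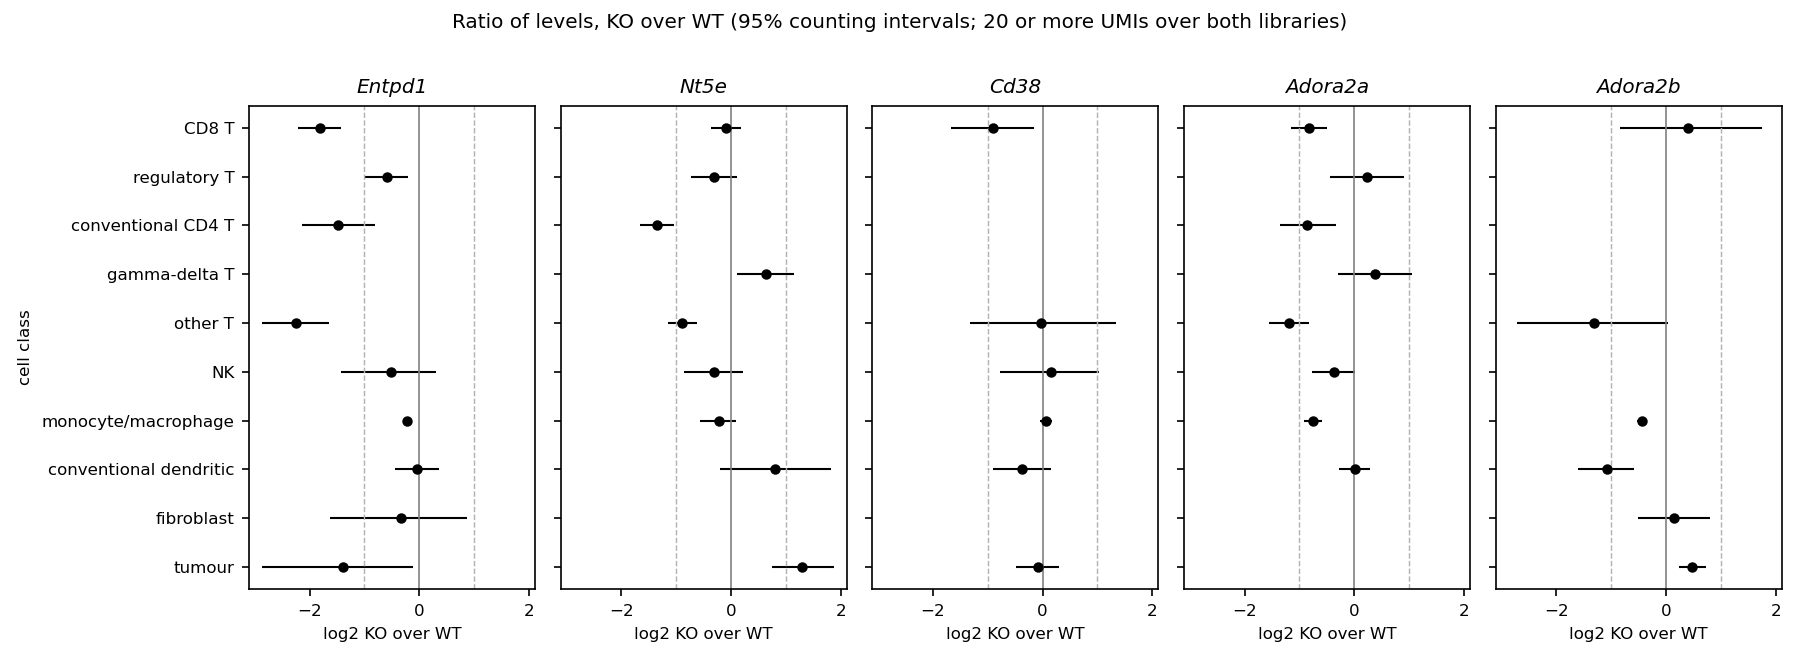
Log2 ratio of KO over WT for the 5 genes by cell class, with 95% counting intervals and dashed lines at 2-fold, drawn where both libraries together hold 20 or more UMIs. Entpd1 lies below 0 in CD8 T cells (-1.81), and Nt5e below 0 in conventional CD4 T cells (-1.35) and above it in tumour cells (1.30).

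Of 40 other genes of the route, which make or clear adenosine, release or sense ATP, or answer cAMP, 23 met the minimum in CD8 T cells. Past 2-fold were 4 higher and 2 lower in KO, where 4.03% of all genes were higher and 4.93% lower. The median was -0.14, against -0.10 over all genes. Here and below the route genes were taken over whole classes, without splits. Naive-like cells and cells with Pdcd1 made up different shares of KO and WT CD8 T cells. Adk, the kinase that clears adenosine inside cells, stood at 157 CPM in KO and 61.9 CPM in WT (1.34, 1.10 to 1.58). Pde4b, a phosphodiesterase that breaks down cAMP, stood at 277 and 133 CPM (1.06, 0.89 to 1.23). P2ry14, a receptor for UDP sugars, stood at 22.7 and 9.31 CPM (1.28, 0.66 to 1.94). Crem, a factor that cAMP signals induce, was lower at 172 CPM in KO and 402 CPM in WT (-1.22, -1.36 to -1.09). Enpp1, another ectoenzyme that splits nucleotides, stood at 8.18 and 19.6 CPM (-1.26, -1.91 to -0.64), and Pde4d, a relative of Pde4b, at 182 and 291 CPM (-0.68, -0.82 to -0.53).

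In regulatory T cells 16 of the 40 met the minimum and none was past 2-fold, where 8.64% of all genes were, with a median of -0.07 against -0.06 over all genes. Crem was again lower at 346 CPM in KO and 537 CPM in WT (-0.63, -0.86 to -0.41), and Slc28a2, a nucleoside carrier, stood at 34.7 and 59.9 CPM (-0.79, -1.51 to -0.09). Pde3b (0.96, 0.10 to 1.85), Adk (0.37, 0.05 to 0.68) and Prkar1a (0.26, 0.04 to 0.47) were higher in KO with intervals just above 0.

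In macrophages 32 met the minimum and 1 was past 2-fold, Enpp3, from 2 KO and 19 WT UMIs with an interval that includes 0, where 6.34% of all genes were. The median was -0.13, against -0.01 over all genes. Pde4d stood at 95.3 CPM in KO and 141 CPM in WT (-0.56, -0.65 to -0.48), Crem at 134 and 187 CPM (-0.48, -0.55 to -0.41), and P2rx7, the ATP-gated channel that senses high ATP, at 32.2 and 42.3 CPM (-0.39, -0.54 to -0.25). Bst1 (0.15, 0.06 to 0.24), a relative of Cd38, and Nampt (0.10, 0.03 to 0.17), which makes the NAD precursor, were the 2 genes higher in KO with an interval clear of 0.

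Over 23 points, each a class in 1 library, the pattern of each gene was set against 8489 others by Spearman correlation of log2(CPM + 1). Classes of 1 library share its depth and free RNA, so these values are descriptions. Most like Entpd1 were Rbm47 (0.82), Edem1 (0.79) and Cd68 (0.77), and most like Nt5e were Slc35d1 (0.96), Rnf125 (0.92) and Zdhhc18 (0.92). Cox4i1 (0.87), Polr2i (0.86) and Pgls (0.83) were nearest to Cd38. Prex1 (0.94), Rgs1 (0.93) and Rab8b (0.92) were nearest to Adora2a, and Rin2 (0.91), Txnrd1 (0.91) and Parp12 (0.90) to Adora2b. Among the 5 genes themselves, the values ran from 0.59 for Nt5e with Adora2a to -0.52 for Nt5e with Cd38, and Entpd1 with Nt5e gave -0.03.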

How the data were processed

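The KO and WT libraries (10x Chromium 3' v3.1) were read as deposited matrices of raw UMI counts for 33696 genes. The submitters' processing notes name Cell Ranger 6.0.1, Seurat 4.0.3, Seurat 4.0.4 and the mm10 build. Per the file headers the count matrices come from Cell Ranger 8.0.1. No source used here gives the annotation release or strand setting, and 31961 gene IDs (94.9%) matched GENCODE M21.

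Kept cells had 200 or more genes and no more than 20% mitochondrial UMIs. Gates used raw marker UMIs, such as 2 for Cd3d, Cd3e and Cd3g together in T cells and 3 over a list that includes Csf1r, Adgre1 and Fcgr1 in macrophages. Some marker genes of the gates are not reported here. Cells meeting gates of several lineages (7.58% of KO, 3.67% of WT), which many doublets would meet, were left out, and 22.5% and 20.5% met none. No doublet caller was run. UMIs were summed per class and library and divided by the class total (CPM). Levels have exact Poisson, shares Clopper-Pearson and ratios exact conditional 95% intervals. A side with 0 UMIs was set to 3 and gives only a bound. Past 2-fold was counted over genes with 20 or more UMIs in both libraries together. No test was made, and the ratio step was checked on simulated data. Thinning drew 2000 UMIs per cell 1 time. The members and lists were chosen with earlier results of these data known. Of the other route genes, up to 3 per direction in 3 classes are named, those whose interval bound nearest 0 lies farthest from it. Beside 12 listed alternatives, 4 were added after seeing the data. Python 3.11.15, numpy 2.4.6, scipy 1.17.1, pandas 2.3.3 and matplotlib 3.10.9 were used.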

Additional observations from a re-analysis of the deposited data

Results flagged for a closer look

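Over the 10 whole classes compared, leaving out their splits, 2 of the 5 genes had KO to WT ratios of opposite signs with intervals clear of 0. The difference between classes was not tested. Nt5e was higher in KO in gamma-delta T cells (log2 0.63) and in tumour cells (1.30), and lower in KO in conventional CD4 T cells (-1.35) and in T cells without a finer class (-0.89). Adora2b was higher in KO in tumour cells (0.48), and lower in KO in macrophages (-0.44) and conventional dendritic cells (-1.08). Within splits, Cd38 was higher in KO in C1q-low macrophages (0.52), against -0.91 in CD8 T cells. Entpd1 was higher in KO in C1q-low cells with Arg1 (0.44), against -1.81 in CD8 T cells.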

How the results depend on the processing

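Of 529 values recomputed under other settings, 495 stayed inside the interval of the reported value and 34 left it. The 18 ratios with an interval clear of 0 kept their sign in all 214 of their alternatives. In CD8 T cells, Entpd1 was -1.26 with cells thinned to 2000 UMIs. Thinned to 1000 UMIs, Nt5e was 0.25 and Cd38 -1.72 in CD8 T cells, Entpd1 -1.65 and Nt5e -0.85 in regulatory T cells, and Entpd1 -0.29, Nt5e -0.69, Cd38 0.28 and Adora2b -0.31 in macrophages. Each thinning is 1 draw of few UMIs and leaves out shallow cells. Lymphoid cells without C1q and with fewer than 2 Lyz2 UMIs gave -1.72 for Cd38 in CD8 T cells. Without cells holding 5 or more Rhox5 UMIs, Entpd1 in macrophages was -0.17, and without cells holding 2 or more fibroblast marker UMIs it was also -0.17. At 1.5-fold in place of 2-fold, 3 genes passed in CD8 T cells, 1 in regulatory T cells and 1 in macrophages, where 22.9%, 24.8% and 15.6% of all genes did. Without naive-like cells, Adora2a in conventional CD4 T cells was -0.22. Why these values moved was not tested. Cd38 and Adora2b had few UMIs in T cells, and their intervals there are wide. No paired analysis was possible because each genotype is 1 library.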
